A study of Drosophila melanogaster with 2 samples.

Results

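Of the 2451 reproducible (IDR) CG3065-GFP peaks in whole Drosophila melanogaster embryos, 416 had their summit more than 5000 bp from the start site of every transcript of every protein-coding gene. That is 17.0% (95% Clopper-Pearson interval 15.5% to 18.5%). These distal peaks were chosen from their position alone, against the Ensembl annotation, with no use of signal beyond the authors' own choice of IDR peaks. Of them, 244 lay in an intron, 165 lay between genes, 4 in a 3′ untranslated region and 3 in a coding exon. The label of peaks far from any start site held for protein-coding genes only: 307 IDR peaks were as far from the start sites of genes of every kind, noncoding genes included.

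The embryos were 0 to 16 h old, of mixed sex, and came from a transgenic line that expresses CG3065 fused at its C-terminal end to green fluorescent protein, GFP. Chromatin immunoprecipitation and sequencing (ChIP-seq) used an antibody against GFP, on chromatin sheared to 200 to 800 bp. There were 2 biological replicates, numbered 1 and 3 in the labels, both of the same line and age, and no second group. The peak lists describe a population of cells and stages, so they cannot tell which cells or ages a peak belongs to, and they hold no expression values with which to check the tissue. The reproducible peaks are those the authors retained by the irreproducible discovery rate (IDR), and are called IDR peaks here. The relaxed lists, of 30000 peaks for replicate 1, 26271 for replicate 3 and 30000 for both pooled, also hold peaks that need not mark binding. The signal of a peak is the authors' own enrichment value, read here within a list only. Depth is unknown, as no read counts are in the lists. Peaks of 1 list are not replicates of a condition, so no test was made, and intervals cover counting error only.

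CG3065 belongs to the Sp/KLF family, whose members carry 3 zinc fingers near the C-terminus and bind GC boxes and CACCC boxes in DNA. In flies, as in other animals, regulatory DNA outside promoters often lies in long introns and in the wide stretches between developmental genes. Genes of embryonic patterning, such as the Hox genes, are known for such distant enhancers and boundary elements. The Sp/KLF box was searched for as CACGCCC and the 3 further spellings that have C for A at the second base, A for G at the fourth, or both, on both strands, within 50 bp of each summit.

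The windows below show strong distal summits at the base level, with any Sp/KLF box in capitals on whichever strand it lies. All are from the plus strand of Release 6 (dm6), read from the RefSeq genome sequence, with the summit at the central base. The first 6 belong to the strongest distal peaks in introns or between genes on the arms shown, and the last 4 to the strongest further ones on these arms that hold a box. Summits of 1 arm are not shown, among them the 2 strongest of all, of which the first holds a box and the second does not.
MSAmiP intron, between abd-A and Abd-B, chr3R:16847392-16847492: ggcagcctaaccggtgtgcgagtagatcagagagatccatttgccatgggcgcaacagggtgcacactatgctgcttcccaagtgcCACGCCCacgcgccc
CG4004 to Paics, first summit, chrX:12752334-12752434: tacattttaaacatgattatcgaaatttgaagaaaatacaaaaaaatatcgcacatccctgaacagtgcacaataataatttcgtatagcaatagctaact
Cyt-c1L to eEF1gamma, chr3R:29214386-29214486: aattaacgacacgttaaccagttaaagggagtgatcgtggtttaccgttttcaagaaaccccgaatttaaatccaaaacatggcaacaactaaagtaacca
Sox100B to CG11317, chr3R:31086562-31086662: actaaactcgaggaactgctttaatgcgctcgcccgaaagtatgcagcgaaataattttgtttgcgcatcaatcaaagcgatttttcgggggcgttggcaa
osa intron, chr3R:17704358-17704458: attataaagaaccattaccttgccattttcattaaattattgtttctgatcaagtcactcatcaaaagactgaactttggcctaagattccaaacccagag
CG4004 to Paics, second summit, chrX:12751364-12751464: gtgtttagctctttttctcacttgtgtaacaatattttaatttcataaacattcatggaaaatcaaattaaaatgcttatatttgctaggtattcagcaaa
ed intron, chr2L:4057025-4057125: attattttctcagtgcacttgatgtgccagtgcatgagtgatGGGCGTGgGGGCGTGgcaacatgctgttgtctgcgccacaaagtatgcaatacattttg
CG31275 to Glut3, chr3R:16782553-16782653: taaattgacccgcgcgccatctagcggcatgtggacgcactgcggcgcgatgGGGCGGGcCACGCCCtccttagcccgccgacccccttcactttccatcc
Alp13 to Fmr1, near mir-34, chr3R:10100610-10100710: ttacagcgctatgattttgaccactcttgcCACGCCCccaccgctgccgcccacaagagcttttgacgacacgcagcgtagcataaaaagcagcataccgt
Tim17b2 to lace, chr2L:15491321-15491421: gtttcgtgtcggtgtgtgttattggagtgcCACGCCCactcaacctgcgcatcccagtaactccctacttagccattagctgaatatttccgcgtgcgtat

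In the first 6 windows printed a box occurred once, in the MSAmiP intron. The windows in the ed intron and before Glut3 each held 2 boxes side by side. GC content differed widely between them, from 25.7% and 27.7% in the windows beside CG4004 to 61.4% in MSAmiP and 67.3% before Glut3. Strong distal summits thus occurred both in AT-rich DNA without a box and in GC-rich DNA with one.

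The Sp/KLF box was found at 88 of the 416 distal summits, or 21.2% (17.3% to 25.4%). Over all IDR peaks the share was 11.3%. Windows of the same length centred 500 bp to the left and right of the distal summits held a box in 6.25% and 4.09% of cases. Among IDR peaks within 5000 bp of a start site it was 9.24% (188 of 2035), lower by 11.9 percentage points (Newcombe 95% interval 8.03 to 16.3). The share did not climb evenly with distance. It was 6.47% of 1236 IDR peaks within 500 bp of a start site, 13.5% of 483 over 500 and up to 2000 bp, 13.6% of 316 over 2000 and up to 5000 bp, and 17.3% of the 197 beyond 10000 bp, below that of all distal peaks. Of all 608873 windows of this length in distal DNA, 4.25% held a box. Relaxed peaks that overlap no IDR peak held one at 11.6% of 8964 distal summits, with intervals that do not overlap those of the distal IDR peaks.

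**Figure D1:**
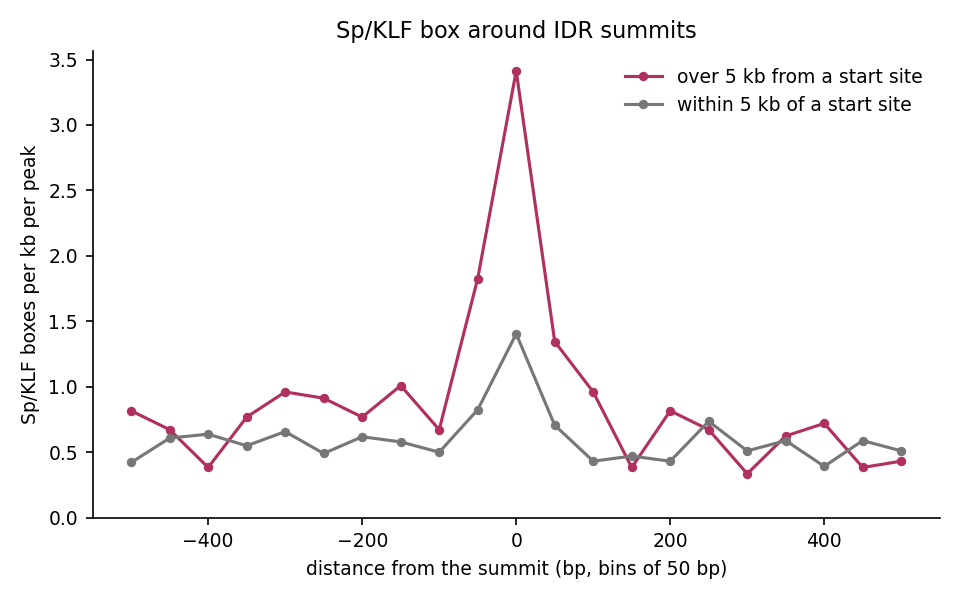
Sp/KLF boxes per kb per peak (vertical axis) in bins of 50 bp by distance from the summit in bp (horizontal axis), for the 416 IDR peaks over 5000 bp from a protein-coding start site and the 2035 nearer ones. The central bin reached 3.41 boxes per kb for the distal peaks and 1.41 for the others, and neither line passed 1.01 beyond 100 bp on either side.

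A single spelling, CACGCCC, made up most of these boxes. It stood at 77 distal summits, or 18.5%, against 6 and 4 of the left and right windows and 7.62% of the nearer IDR peaks. The difference from the nearer peaks was 10.9 points (7.24 to 15.1). Of all windows in distal DNA, 1.45% held it. The other spellings each occurred at 1.20% to 2.64% of distal summits, and their differences from the nearer IDR peaks and from both flanks had intervals that include 0. Of the 107 matches at distal summits, 85 were CACGCCC, 11 CCCGCCC, 6 CCCACCC and 5 CACACCC. The centre of a match was a median of 17 bp from the summit, and 59 matches lay within 20 bp. At 18 summits there were 2 or more.

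Distal peaks with and without a box had overlapping intervals of signal. The median signal was 109 for the 88 with a box (95% interval of the median 98.2 to 116) and 110.0 for the 328 without (106 to 116). A box was found at 20.7% of the 208 stronger distal peaks and 21.6% of the 208 weaker, a difference of -0.96 points with an interval from -8.80 to 6.89. GC content did differ: the median was 51.5% in windows with a box and 33.7% without. The box itself is GC-rich, and how much of this difference it makes up was not tested. Between genes 24.9% of summits had a box and in introns 17.6%, and the difference of intron minus intergenic was -7.23 points with an interval from -15.5 to 0.74.

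Of 7-base words set against their own flanks, those that stood out most at distal summits also spelled this box and its edges. CCACGCC was at 68 summits and at 3 of the windows on each side, and GCCACGC at 65 against 1 and 5. The word CGCCCAC was at 52 against 7 and 3. Joined, they read as the box preceded by GC and followed by A or C. An AT-rich word, AAATATT, was at 54 summits and at 27 and 22 of the flanks, and at 10.6% of the nearer IDR summits against 13.0% of the distal ones. These words were picked after their counts were seen, so they describe the windows and are not tested.

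For 3 of the 12 other motifs searched, the interval of the difference between distal and nearer IDR summits left out 0. The DRE (TATCGATA), the element of housekeeping promoters bound by DREF, was at 1 distal summit (0.24%) and at 43 nearer ones (2.11%), a difference of -1.87 points (-2.62 to -0.64). It was at 3.32% of IDR peaks within 500 bp of a start site. Over 500 and up to 2000 bp the share was 0.41%, and over 2000 and up to 5000 bp 0%, so the difference lay at promoters. Of all windows in distal DNA 0.212% held it. The core of the site of the insulator protein CTCF, searched as AGGNGGC, was at 31 distal summits (7.45%) and 97 nearer ones (4.77%), higher by 2.69 points (0.31 to 5.74). Its share was 3.80% within 500 bp of a start site, 5.80% over 500 and up to 2000 bp, and 6.96% over 2000 and up to 5000 bp. It was at 11.5% of the 208 stronger distal peaks and 3.37% of the 208 weaker, a difference of 8.17 points (3.17 to 13.5), and at 10.3% of intergenic and 4.92% of intron summits. Of all windows in distal DNA 3.60% held it. Of the distal summits' own flanks 5.05% on the left and 3.13% on the right held it, and the difference of summit minus left flank, 2.40 points (-0.93 to 5.80), has an interval that includes 0. GAGAG, bound by the GAGA factor, was at 13.9% of distal and 10.4% of nearer summits, higher by 3.57 points (0.26 to 7.44), yet also at 16.1% and 14.2% of the distal summits' own flanks. Its share was 8.82% within 500 bp of a start site, 13.5% over 500 and up to 2000 bp, and 11.7% over 2000 and up to 5000 bp. Of all windows in distal DNA 11.5% held it. The intervals of the other motifs' differences from the nearer summits included 0, namely those of Zelda, Pho, GATA factors, the E-box, CA repeats, the TATA box, Sox proteins, Hox proteins and AP-1. With 13 motifs and several comparisons each, the intervals are not adjusted for their number.

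The letters searched, on both strands, and the shares of distal IDR summits and of all distal windows were as follows. Zelda, the activator of the early embryonic genome, was searched as CAGGTAG and found at 0.481% of summits and in 0.437% of windows. The Polycomb recruiter Pho was searched as GCCATN and A or T (9.86% and 11.98%), and GATA factors as GATA after A or T and before A or G (20.2% and 16.5%). The E-box was CAGCTG (2.64% and 3.66%), the CA repeat CACACACA (2.16% and 2.23%) and the Sox site ACAAAGG or ACAATGG (1.44% and 3.22%). The TATA box was TATA, A or T, A, A or T, and A or G (10.1% and 8.23%). The Hox site was TAAT after C or T and before GA or TA (9.86% and 9.05%), and AP-1 was TGACTCA or TGAGTCA (0.240% and 0.729%). Bases of a CA repeat can also belong to the box, spelled CACACCC. A match is a description of the letters in the window, not a bound site.

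Distal DNA was sparsely occupied beside promoter-near DNA. Bases over 5000 bp from every start site made up 61.7 Mb, or 46.1% of the 6 chromosome arms, and held 6.74 IDR peaks per Mb (exact Poisson 95% interval 6.11 to 7.42). The remaining 72.2 Mb held 28.2 per Mb. Within distal DNA, introns carried 8.08 IDR peaks per Mb (7.10 to 9.16), intergenic stretches 6.35 (5.42 to 7.39) and coding exons 0.782 (0.161 to 2.29). Introns were thus 58.7% of the peaks and 48.9% of the distal bases, and coding exons 0.721% and 6.21%. The weaker relaxed peaks in distal DNA were also mostly in introns (56.5%) and between genes (37.7%), with 2.90% in coding exons.

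By chromosome arm, the density was 8.75 per distal Mb on 2L (7.02 to 10.8), 7.88 on 3L, 6.49 on 3R, 6.44 on X and 4.13 on 2R (3.03 to 5.49). The small chromosome 4 held 5 distal peaks, or 7.44 per Mb (2.42 to 17.4). Arm 2R was the lowest, and its interval does not overlap those of 2L and 3L. Of the 428 IDR peaks on 2R, 10.98% were distal (8.18% to 14.3%), against 16.7% to 20.6% on the other large arms.

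Distal peaks made up less of the strong end of the list than of the weak end. Among the 250 strongest pooled peaks 35 were distal, a share with an interval of 9.95% to 18.9%. The share was 10.4% at ranks 251 to 500, 15.2% at 501 to 1000 and between 18.8% and 19.5% over the rest of the IDR peaks. Below the IDR peaks it went on to rise, to 36.9% over the last 10000 ranks. The lists of the single replicates ran the same way: from 13.6% at ranks 251 to 500 to 33.0% at the bottom in replicate 1, and from 12.4% at the top to 40.1% in replicate 3.

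**Figure D2:**
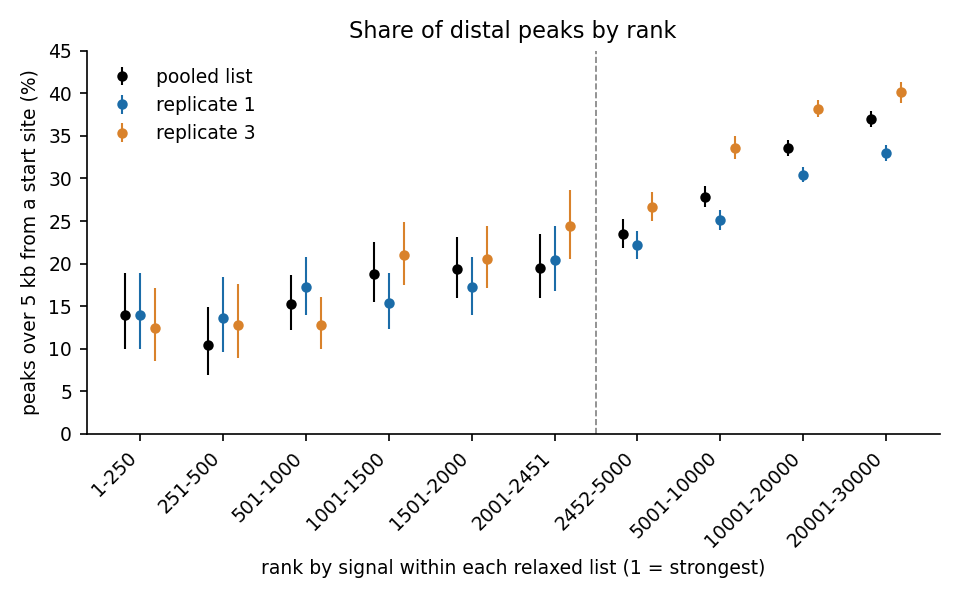
Percentage of peaks over 5000 bp from every protein-coding start site (vertical axis) by rank of signal within the relaxed list (horizontal axis, 1 is the strongest) in the pooled list, replicate 1 and replicate 3, with 95% Clopper-Pearson intervals. The dashed line marks rank 2451, where the pooled IDR peaks end; the share was lowest within the first 500 peaks in all 3 lists and highest at the end, 36.9%, 33.0% and 40.1%. The last bin of replicate 3 ends at rank 26271.

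In signal the distal IDR peaks were slightly below the rest. Their median was 110 (106 to 114), with quartiles of 92.8 and 145 and a range of 81.5 to 716. The median of the nearer IDR peaks was 118 (115 to 120), and that of IDR peaks within 500 bp of a start site 120 (118 to 124). For the 799 IDR peaks over 500 and up to 5000 bp from one it was 111.5 (108.7 to 116.9). That interval overlaps the interval of the distal peaks. Signals above 200 were found for 46 distal peaks (11.1%) and for 14.5% of the nearer ones. Intergenic distal peaks had a median of 115 (109.9 to 124) and those in introns 106 (100.9 to 110.0), with intervals that meet at their ends. Distal peaks were 3 of the 25 and 12 of the 100 strongest IDR peaks.

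The distal peaks ranged from just past the limit to far beyond it. To the nearest start site it was a median of 9552 bp, with quartiles of 6738 and 14848 bp. The median was 8729 bp for introns and 11177 bp between genes. Beyond 10000 bp lay 197 peaks (47.4%), beyond 20000 bp 56 and beyond 30000 bp 20. The farthest, 59102 bp from the start of CG12362 in the stretch that begins at the odorant receptor gene Or67d, had a signal of 83.3. Just inside the rule were peaks 5026 bp from Mnt (signal 94.1), 5031 bp from RhoGAP19D (137) and 5035 bp from mop (276). Just outside it were peaks 4956 bp from ush (196), 4979 bp from Pdk (119) and 4995 bp from cno (124).

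The IDR peaks are the strong end of the pooled list, with signals of 81.3 and above. A match in both replicates is thus largely fixed by that choice, though not for every peak. A relaxed summit lay within 200 bp in both replicates for 415 of the 416 distal peaks, or 99.8%, against 99.2% of all IDR peaks. The exception, in an intron of the dynein gene Dhc36C (2L 17514264), had no match in replicate 1, a signal of 43.7 in replicate 3 and 94.9 in the pooled list. Among the distal peaks 283 (68.0%) ranked within the first 2451 of both replicates, and 71.1% of the nearer IDR peaks did. Between replicates, signal had a Spearman's rho of 0.454 over the 415 distal peaks and 0.594 over the nearer ones, both as descriptions of peaks that share the same libraries. Both sets hold only peaks with a high pooled signal, a choice that can itself lower rho. The median signal of distal peaks was 62.6 in replicate 1 and 48.9 in replicate 3, each on its own scale.

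**Figure D3:**
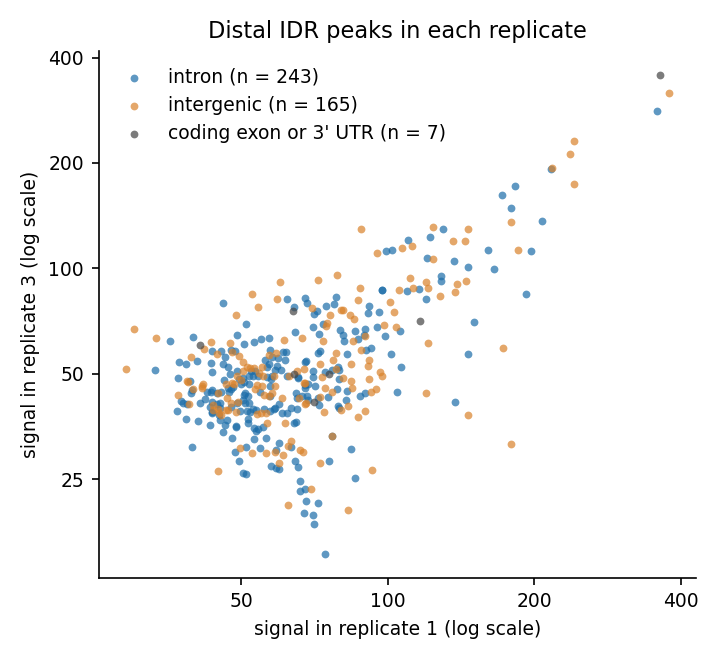
Signal of the distal IDR peaks in replicate 1 (horizontal axis, log scale) and in replicate 3 (vertical axis, log scale), for the 415 with a relaxed summit within 200 bp in both; colours mark introns, intergenic stretches and exons. The 3 strongest peaks stand apart at the upper right in both replicates (357 to 378 in replicate 1 and 282 to 357 in replicate 3). The weaker ones form a broad cloud with no more than a loose relation, in a set limited to pooled signals of 81.5 and above.

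The strongest distal peak lay in a coding exon of fus on 2R (summit 15658008), 7086 bp from the nearest start site. The gene fus, fusilli, encodes an RNA-binding protein. Its signal was 716 in the pooled list, 362 in replicate 1 and 357 in replicate 3, and it ranked 9 among all IDR peaks. The window of the summit held a Sp/KLF box. The second, at 2R 13035341, had signals of 691, 378 and 316 and lay between the Polycomb group gene Su(z)2 and CG13323, 9354 bp from the latter. A weaker summit in the same stretch, at 13039106, had 254, 124 and 131.

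The third lay in the bithorax complex, the cluster of the Hox genes that set segment identity in the rear of the body. Its summit, in an intron of MSAmiP at 3R 16847442, was 17393 bp from the start of abd-A and had signals of 641, 357 and 282. From CG31275 to Abd-B there were 6 distal peaks in all, with pooled signals of 159 to 641, 2 of them with a box. The intergenic summit nearest to Abd-B, at 16919250, was 14992 bp from its start and had 298, 185 and 113. Between CG31275 and abd-A, the summit 5708 bp from the start of Glut3, a gene of the sugar transporter family, had 277, 146 and 130. That at 16764272, over the noncoding gene bxd, had 228, 172 and 59.1, with replicate 3 far lower than replicate 1. In the Antennapedia complex, from ftz to Antp, there were also 6, but all were weak: their signals ran from 81.7 to 107, and 5 of them lay in introns of Antp.

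Next in order came peaks between genes. The X chromosome stretch between CG4004 and Paics, an enzyme gene of purine synthesis, held summits with pooled signals of 481, 408 and 123.5 within 3116 bp of each other. The strongest had 242 in replicate 1 and 231 in replicate 3, and the next 217 and 193. They lay 517 and 453 bp, in that order, from the start of the noncoding gene lncRNA:CR44619. The summit 5736 bp from eEF1gamma, a subunit of a translation elongation factor, had 453, 237 and 212. It lay 126 bp from the start of the noncoding gene lncRNA:CR31044. Between Sox100B, a Sox family transcription factor gene, and CG11317 the signal was 416, 242 and 174. The intergenic summit 13367 bp from hng3 had 312, 179 and 136. The 266 of a summit between CG14762 and Optix, a gene of eye development, (144 and 120 in the replicates) came with 2 boxes in its window. That summit lay 196 bp from the start of the noncoding gene lncRNA:CR45267.

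In a stretch between Alp13 and Fmr1, at 3R 10100660, a summit lay 276 bp from the start of mir-34, a conserved microRNA. Fmr1 is the fly counterpart of the human fragile X gene. The signals were 261, 136 and 120, and the window held 1 CACGCCC. The peak lay 7682 bp from the nearest protein-coding start site, so it was distal for protein-coding genes and close to the start of a noncoding one.

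Among intron peaks, osa, which encodes a subunit of the Brahma chromatin remodelling complex, held summits of 409 (217 and 192 in the replicates) and 270.5 (161 and 113). The stronger lay 713 bp from the start of the noncoding gene lncRNA:CR46035, and the weaker 130 bp from that of lncRNA:CR46036. An intron shared by CG12912, CG46321 and the nuclear receptor gene Hr3 held one of 350 (182.5 and 172). Gug, the gene of the corepressor Atrophin, had 347 (207 and 136). The intron of CG32486 had 339 (172 and 162), with a CTCF core in the window. Echinoid (ed), a cell adhesion molecule, had 328.5 (179 and 149) at a summit 25698 bp from any protein-coding start. An intron of Lrch had 313 (197 and 112), and one of the lipase gene bmm 276 (192 and 84.7). The 25 strongest distal peaks were 13 in introns, 11 between genes and 1 in a coding exon, and all 25 were within the first 500 of both replicates. Of these 25, 6 held a Sp/KLF box.

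Further intron peaks among the 25 lay in S, fz, tara and beat-Ib. S, Star, which helps the Egfr ligand Spitz leave the endoplasmic reticulum, had 262.5 (165 and 99.3). The Wnt and planar polarity receptor gene fz, frizzled, had 247 (146 and 101.1) at a summit 25309 bp from the nearest protein-coding start. The coregulator gene tara, taranis, had 243 (122 and 123). An intron of beat-Ib, of a family of axon guidance genes, had 264 (130 and 129). Its summit lay 421 bp from the start of the noncoding gene lncRNA:CR44867.

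Most intron peaks lay in first introns. Of the 244, 142 were in the first intron of at least 1 transcript, or 58.2% (51.7% to 64.5%). First introns held 30.9% of the intron bases over 5000 bp from a start site. Of the 5066 weaker relaxed peaks in distal introns 42.3% were in first introns, lower by 15.9 points (9.46 to 22.0). The peaks in first introns were also nearer to a start site, with a median distance of 7952 bp against 9690 bp for those in later introns. The introns were long, with a median of 15364 bp for the shortest intron around each summit. The genes that held them had a median length of 45914 bp, against 2166 bp over all protein-coding genes, as the rule on distance requires.

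Of the 2084 protein-coding genes with any base over 5000 bp from a start site, 188 held a distal IDR summit (9.02%). Most held 1 (139 genes), 33 held 2, 11 held 3, 2 held 4 and 3 held 5. An IDR peak within 500 bp of a start site of their own was found for 43 of the 188 hosts (22.9%) and for 280 of the other 1896 (14.8%). The difference was 8.10 points (2.43 to 14.8). Among genes with over 5000 and up to 20000 distal bases the shares were 21.6% and 14.3%, and among longer ones 26.5% and 11.8%. Among genes with fewer distal bases, 0 of 12 hosts and 16.6% of the others had one.

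The genes with the most distal summits were sbb, ed and Antp with 5 each, and Hr4 with 4. In sbb, scribbler, a corepressor gene on 2R, the 5 summits lay within 9803 bp and had signals of 150, 165, 218, 226 and 92.0. In replicate 1 they were 87.0, 98.9, 150, 129 and 46.0, and in replicate 3 63.0, 64.2, 70.2, 94.8 and 47.8, so the same 4 were the stronger in both. In ed a summit of 328.5 stood beside 4 of 83.5 to 108. The summits in Hr4, a nuclear receptor gene of the ecdysone response, had 194, 238, 88.1 and 165. In Antp, whose introns CG46458 overlaps and shares 4 of the summits, the highest was 107. Genes with 3 included N, the Notch receptor (165, 107 and 83.1), the kinase gene Raf (121 to 143), tara (99.5 to 243), simj (84.8 to 221) and jing (96.8 to 158).

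Some distal summits lay close to each other. When neighbours at most 10000 bp apart were joined, 133 of the 416 (32.0%, 27.5% to 36.7%) fell into 53 clusters of 2 or more. No such share was computed for other peaks, so this one is a description only. There were 34 pairs, 13 clusters of 3 and 6 of 4 or 5. Of the 410 gaps between neighbours, 33 were at most 2000 bp, and the shortest was 199 bp, in simj. By class, 30 clusters lay wholly in introns and 22 wholly between genes. Members of clusters had a median signal of 114 (110 to 123.5), and those alone 107 (103 to 112).

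The fullest clusters were that of sbb and an intergenic one on 3L between NijA and CG43245, also of 5 summits, over 17456 bp, with signals of 84.9 to 181. The ed intron held 4 within 11407 bp. The intergenic cluster between CG7320 and CheA75a on 3L also had 4, over 7758 bp, with signals of 84.3 to 227. In ed and between CG7320 and CheA75a the strongest summit was the last one along the arm, and in sbb it lay inside the cluster.

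Noncoding genes and repeats were counted apart. A noncoding gene covered 39 distal summits, 28 of them between protein-coding genes. The share of distal bases under noncoding genes is not given here, so these counts are descriptions only. Against the start sites of genes of every kind, 307 of the 416 peaks stayed distal. Within 500 bp of the start of a noncoding gene lay 25 summits, or 6.01% (3.93% to 8.74%), where 1.78% of distal bases and 3.08% of the weaker relaxed distal peaks lie. The median signal of these 25 was 144 (118 to 227). Over an annotated transposable element lay 11 summits, or 2.64% (1.33% to 4.68%), against 9.77% of distal bases and 2.25% of the weaker relaxed peaks. How the authors treated reads from repeats is not given in the sources used here.

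By function, distal summits were counted in 12 gene lists chosen with earlier results of these data known. They were densest inside genes of chromatin regulation, nuclear receptors, signalling and developmental transcription factors outside the homeobox group. Homeobox genes, which are also regulators, were not among the dense lists, and their interval of density included that of all genes. The densities and intervals describe these lists and are not a test of them. The intervals treat summits as independent, though several can lie in 1 gene, so they may be too narrow. In the nuclear receptor list, Hr4 alone held 4 of the 12 summits. Each list of genes is given by how many of its genes with distal bases held a summit and by summits per Mb of such bases, beside 9.02% of genes and 7.02 per Mb (6.18 to 7.95) over all genes. Of the signalling genes 23 of 61 held one (37.7%), at 25.6 per Mb (17.2 to 36.8). After S and fz the highest were vn, which encodes an Egfr ligand (203; 146 and 56.8 in the replicates), and a summit beside sty, the Egfr and FGF antagonist Sprouty (217.5; 107 and 114). Of the developmental transcription factor genes outside the homeobox group 12 of 48 held one, at 25.2 per Mb (16.1 to 37.5). This list also takes in coregulator genes: of its 24 summits sbb held 5 and tara 3. Besides tara, sbb and the summit beside Sox100B, the highest was one next to tsh, teashirt (228; 112 and 116). Of the genes of nuclear receptors and the ecdysone response 5 of 14 held one, at 27.9 per Mb (14.4 to 48.8): Hr3, Hr4, EcR (149 at its highest), Eip75B (124) and Eip74EF (83.5). Of the chromatin regulators 4 of 16 did, at 33.1 per Mb (10.7 to 77.2) from 5 summits: osa, Mi-2 (147), trx (116) and Psc (106).

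Among the lists with any distal summit inside a gene, the lowest density was in the ion channel list. Of the ion channel and receptor genes 1 of 61 held a distal IDR summit (1.64%), at 1.35 per Mb (0.164 to 4.89). That was the calcium channel subunit gene Ca-beta, with signals of 91.1 and 85.5, while a summit of 208 lay between CG9300 and the potassium channel gene Shal. Axon guidance and adhesion genes held 14 summits in 3.57 Mb of distal bases, or 3.92 per Mb (2.14 to 6.58), in 11 of 95 genes (11.6%), so this list was below all genes by density and not by share of genes. Among them were beat-Ib, the guidance gene Sema1a (156) and the adhesion gene Fas3 (145), and a summit of 192 lay beside dpr17. The interval for axon guidance includes part of that for all genes.

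The other lists had intervals of density that include that of all genes. Homeobox genes held summits in 3 of 47 (Antp, ct and Lim1), or 6.38%, below the 9.02% over all genes, at 9.82 per Mb (4.24 to 19.4). RNA-binding genes had 5 of 28 (17.9%), at 3.71 per Mb (1.21 to 8.66), among them fus, the translational repressor gene pum (112.5) and Rbfox1 (105). The list of muscle and muscle attachment genes had 2 of 19 (mew and Fhos), at 8.62 per Mb, and mew held 2 of its 3 summits. A summit of 111.5 lay beside Zasp52. Genes of cytoskeleton and polarity had 3 of 32, at 6.03 per Mb: baz (158), scrib (109) and pyd (87.8). Chemoreceptor genes held 0 in 2 genes with distal bases, and no cytochrome P450 gene had any such bases.

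**Figure D4:**
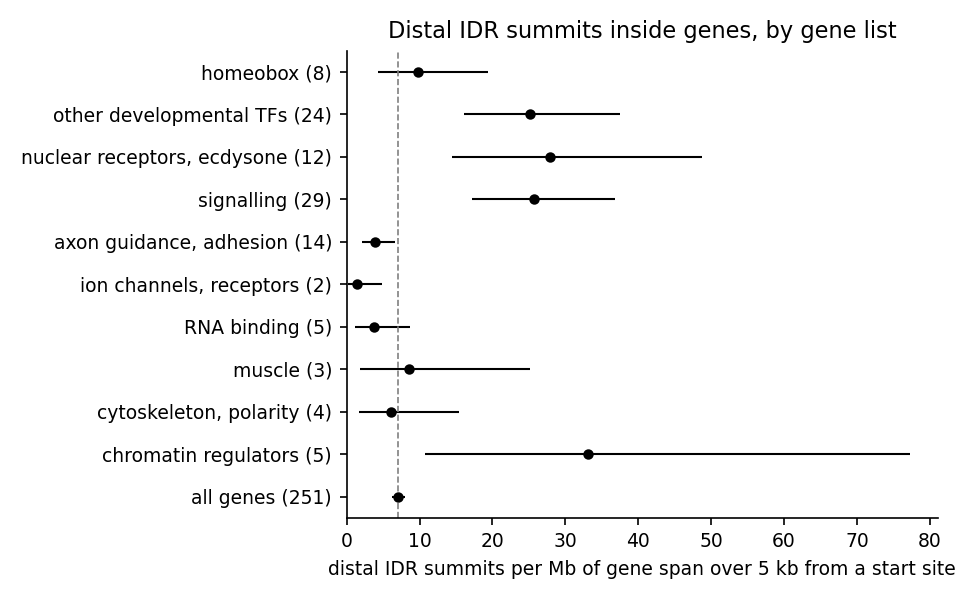
Distal IDR summits per Mb of gene span over 5000 bp from a start site (horizontal axis) for 10 gene lists and all protein-coding genes, with exact Poisson 95% intervals and the number of summits in brackets; the dashed line marks all genes, at 7.02. Signalling, nuclear receptor, chromatin and non-homeobox developmental transcription factor genes lie to its right, from 25.2 to 33.1, and ion channel genes lie furthest to its left, at 1.35. The lists were chosen with earlier results of these data known, so the densities are descriptions.

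The weaker relaxed peaks, which overlap no IDR peak, followed much of the same order. They numbered 156 per Mb of distal bases over all genes, 335 in signalling genes, 272 in nuclear receptor genes, 266 in the developmental transcription factor genes and 83.9 in ion channel genes. As a share of both kinds together, distal IDR peaks were 4.30% over all genes (3.797% to 4.86%). They were 7.11% in signalling genes (4.81% to 10.1%), 8.63% in the developmental transcription factor genes (5.61% to 12.6%), 9.30% in nuclear receptor genes (4.90% to 15.7%) and 1.59% in ion channel genes (0.193% to 5.62%). In chromatin genes they were 11.6%, from 5 summits, with an interval from 3.89% to 25.1% that includes the share over all genes. In homeobox genes, where relaxed peaks numbered 307 per Mb, they were 3.10% (1.35% to 6.02%).

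Between genes, homeobox genes flanked 18 of the 165 intergenic summits, or 10.9% (6.60% to 16.7%), where they flank 6.08% of the intergenic bases over 5000 bp from a start site. Abd-B and abd-A flanked the highest of these (298 and 159), and then hth, homothorax (141; 91.6 and 54.8 in the replicates). The other developmental transcription factor genes flanked 20, or 12.1% (7.56% to 18.1%), where they flank 6.94% of the bases. Axon guidance genes flanked 4, or 2.42% (0.664% to 6.09%), of 7.12% of the bases, and nuclear receptor genes 0 of 0.900%. Chromatin genes flanked 3, or 1.82% (0.38% to 5.22%), where they flank 0.892% of the bases. These were the 2 beside Su(z)2 and a summit of 162 beside Psc. Signalling genes flanked 5, or 3.03% (0.991% to 6.93%), close to the 2.845% of the bases that they flank. Taking signalling, homeobox, other developmental factor and nuclear receptor genes as 1 set of 285, 73 distal summits lay within and 43 more between genes next to them, 27.9% of the 416 (23.6% to 32.5%). These genes hold or flank 11.7% of the bases over 5000 bp from a start site and 21.5% of the weaker relaxed distal peaks (20.6% to 22.3%).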

How the data were processed

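The authors deposited ChIP-seq peak lists in dm6: a relaxed list per replicate, 1 for the pooled reads and the IDR-thresholded list. Column 7 is the signal the authors' caller gave each peak, read within a list only. Column 9, the deposited -log10 q-value, stood at its highest value, 3.635, in 359 of the 416 distal peaks and was not used to rank. Which aligner, caller and IDR threshold they used is not given in the sources used here. Depth is unknown, and controls were not analysed here. The dm3 lists were not used.

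Start sites, exons and genes came from Ensembl release 115 (BDGP6 version 54), and sequence from RefSeq's Release 6, the same assembly as dm6. Coordinates are 1-based. Summits were classed in the order coding exon, 5′ untranslated region, 3′ untranslated region, other exon, intron, intergenic. Motifs had to lie wholly within 50 bp of the summit. Intervals are at 95%: Clopper-Pearson for shares, exact Poisson for densities, order statistics for medians and Newcombe for differences of shares. With 1 group of 2 replicates, no p-value was computed, and the replicates' spread is shown by giving both.

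Members, motifs and the 12 gene lists were chosen with earlier results of these data known. Without a match were 4 of the list symbols, which are not reported here. Named are the 25 strongest distal peaks, the 5 strongest intergenic ones, the 5 hosts and 5 clusters with most summits, up to 4 genes per list by signal, and the peaks nearest to the distance limit; 1 cluster is not reported here. The 7-base words, the genes with 3 summits, the peak without a replicate match, and the other genes outside these rules were named after their values were seen. The distance and motif steps were tested on simulated summits and recovered all of them. Scripts ran under Python 3.11.15 with pandas 2.3.3, scipy 1.17.1, numpy 2.4.6 and matplotlib 3.10.9.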

Additional observations from a re-analysis of the deposited data

How the results depend on the processing

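Of 68 alternative values, 47 kept within the interval or ratio set for the value and 21 moved; none reversed. With over 2000 bp as the limit there were 732 distal peaks (29.9% of IDR peaks), 39.9% of them in clusters. With over 10000 bp there were 197 (8.04%), 49.75% in introns and 49.2% between genes; 17.3% held a box, 6.52 points above the other IDR peaks. Counting start sites of every biotype left 12.5% distal, 67.4% of them in introns, 30.9% intergenic and 25.7% in clusters, and counting noncoding hosts left 32.9% intergenic. Joining within 5000 or 20000 bp put 25% or 44.0% in clusters. Windows of 25 or 100 bp either side found a box at 13.7% or 26.9%. In the 1225 stronger IDR peaks 14.5% were distal. Matching replicates within 100 bp kept 96.6%. The ratio of median signal, distal to other, was 0.890 to 0.961 with either replicate left out and 0.933 in the pooled list; there were 410 to 445 distal peaks, 18.3% to 20.5% of them with a box. The cause of these moves was not tested, beyond the smaller or larger sets the settings make. No paired analysis was possible because there is 1 group. The absence of read counts limits what can be said of depth.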
